A study of Mus musculus with 30 samples.

Results

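The dynamins and amphiphysins bend and cut cellular membranes, and Speg is a muscle kinase that binds myotubularin. The 8 genes described here are the classical dynamins Dnm1, Dnm2 and Dnm3, the dynamin-related Dnm1l, the amphiphysins Bin1 and Amph, the dynamin-binding scaffold Dnmbp, and Speg. They were taken by symbol from the 36103 genes of the count table, and each symbol matched exactly 1 gene. RNA was sequenced in 30 libraries from whole gastrocnemius (a fast hindlimb muscle), diaphragm, heart and liver of 5-week-old mice. The mice were Mtm1-/y males, which carry a knock-out of the X-linked Mtm1 gene in every cell, and wild-type (WT) littermates, all on a common inbred background. There were 4 WT and 4 Mtm1-/y libraries of gastrocnemius and as many of heart, 4 WT and 3 Mtm1-/y libraries of diaphragm, and 3 WT and 4 Mtm1-/y libraries of liver. No treatment was given to any group. A knock-out of the whole animal does not separate effects that arise in a tissue from effects that reach it from elsewhere, and a level in whole tissue cannot tell fewer cells of a type from less RNA per cell.

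Dynamins are large GTPases that assemble around the neck of a membrane bud and constrict it until it separates, and amphiphysins are crescent-shaped BAR domain proteins that bend the membrane and bring dynamin to it. In skeletal muscle these proteins serve the T-tubules, the inward folds of the surface membrane that carry the action potential to the calcium store at the triad. Loss of myotubularin, a phosphatase of 3-phosphoinositides, causes X-linked centronuclear myopathy. Other forms of the disease come from variants of DNM2, BIN1 and SPEG, so these genes are often studied beside MTM1.

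Levels are given as CPM (counts scaled to a common library size, with TMM factors over the 30 libraries), with the SD between libraries of a group. Levels of different genes are compared only as RPKM, which divides the CPM by the gene's exon length in kb. A gene was called at a Benjamini-Hochberg adjusted p under 0.05 in edgeR's quasi-likelihood test, adjusted over all genes tested. The number of mice that the study's methods give for each group equals its number of libraries, while the labels do not say which libraries of different tissues share a mouse. Library totals ran from 24873817 to 44289343 reads. Marker sums for cardiomyocytes, hepatocytes and fast muscle were highest in heart, liver and gastrocnemius, as labelled. They were 45354 to 67554 CPM, 206591 to 265130 CPM and 91110 to 186120 CPM there. The cardiomyocyte list also read 6818 to 7792 CPM in WT gastrocnemius, with lower sums in Mtm1-/y gastrocnemius (given below). In the diaphragm, 4 of 7 libraries held much hepatocyte RNA. The summed hepatocyte markers reached 27213 to 52543 CPM in WT replicates 1, 2 and 4 and in Mtm1-/y replicate 2, against 502 to 3372 CPM in the other 3 libraries. Diaphragm results are therefore also given without those 4 libraries, a choice made after seeing the data. It leaves 1 WT and 2 Mtm1-/y libraries, so the lone WT library is assumed to vary like the other groups of the fit, and a p from such a fit is weak evidence. The targeted gene Mtm1 fell in the gastrocnemius from 21.2 ± 0.733 to 5.01 ± 0.635 CPM. Its level also lay below every WT library in each other tissue, with means of 3.97 against 19.3 CPM for diaphragm, 3.85 against 23.0 CPM for heart and 6.51 against 19.6 CPM for liver. The liver difference in Mtm1 did not pass edgeR's adjusted threshold (adjusted p = 0.37) and passed DESeq2's (adjusted p = 1.2e-06).

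The genes lie on 7 chromosomes of mm10, with the dynamins apart from each other. Dnm1 spans chr2:32308471-32353338 on the minus strand, Dnm2 chr9:21424908-21507759 on the plus strand, Dnm3 chr1:161982453-162478034 on the minus strand and Dnm1l chr16:16312230-16358959 on the minus strand. Amph spans chr13:18948205-19150921 on the plus strand, Dnmbp chr19:43846821-43940191 on the minus strand and Speg chr1:75375297-75432320 on the plus strand, and Bin1 lies on the plus strand of a further chromosome. Their joined exons cover 4117 bases in Bin1, 4528 in Amph, 5203 in Dnm1l, 5249 in Dnm1, 5330 in Dnm2, 8264 in Dnmbp, 12741 in Speg and 24452 in Dnm3. No exon base of the 8 genes is shared with another gene on the same strand. Genes on the opposite strand cover 6.22% of the exon bases of Bin1, 4.67% of Dnm1l, 3.88% of Dnm2 and 1.62% of Dnm3. The strand setting of the counting is not given in the sources used here, so reads in those stretches may have been left out or counted to the partner. Counts are summed over all transcripts of a gene, so isoforms such as the muscle forms of Bin1 were not resolved.

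Windows of 250 bases before annotated starts were found for 7 of the 8 genes (12 starts, RefSeq, GRCm38.p6). The 4 shown here belong to the 3 genes that fell in the gastrocnemius (Speg and Dnmbp at their 5′-most start, Dnm3 at its only one) and to Dnm2, whose level was nearly the same in every tissue. Capitals mark E-boxes (CANNTG, the motif of myogenic bHLH factors) and the MEF2 motif, both searched on both strands.
Speg, chr1:75375047-75375296, plus strand: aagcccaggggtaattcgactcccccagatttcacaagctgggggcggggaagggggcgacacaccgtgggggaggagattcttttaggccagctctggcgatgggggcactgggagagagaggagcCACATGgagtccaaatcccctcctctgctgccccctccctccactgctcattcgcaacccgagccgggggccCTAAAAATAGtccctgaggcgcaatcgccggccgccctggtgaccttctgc
Dnm3, chr1:162478035-162478284, minus strand: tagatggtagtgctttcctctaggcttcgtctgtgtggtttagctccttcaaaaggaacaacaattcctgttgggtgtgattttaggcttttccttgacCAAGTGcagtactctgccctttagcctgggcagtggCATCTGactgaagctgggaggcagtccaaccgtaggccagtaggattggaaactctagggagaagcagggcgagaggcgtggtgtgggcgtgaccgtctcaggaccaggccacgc
Dnmbp, chr19:43940199-43940448, minus strand: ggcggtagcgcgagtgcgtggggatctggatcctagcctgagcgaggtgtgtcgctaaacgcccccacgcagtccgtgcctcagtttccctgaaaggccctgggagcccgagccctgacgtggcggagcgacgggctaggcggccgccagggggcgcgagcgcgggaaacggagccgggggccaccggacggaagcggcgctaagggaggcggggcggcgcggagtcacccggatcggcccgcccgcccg
Dnm2, chr9:21424658-21424907, plus strand: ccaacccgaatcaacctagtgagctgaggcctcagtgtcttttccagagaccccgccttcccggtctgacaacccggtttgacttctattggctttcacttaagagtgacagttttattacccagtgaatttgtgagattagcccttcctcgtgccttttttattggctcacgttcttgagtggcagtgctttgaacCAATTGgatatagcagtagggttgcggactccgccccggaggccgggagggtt
The Speg window holds a MEF2 motif that begins 51 bases before the start and an E-box at 123 bases, and none of the other 11 windows holds a MEF2 motif. Of all 32817 RefSeq windows of this length, 2.92% hold a MEF2 motif and 66.2% an E-box. E-boxes stand at 151 and 115 bases before the Dnm3 start and at 53 bases before the Dnm2 start, and the Dnmbp window shown has none. That Dnmbp window holds 35 CpG dinucleotides and the windows of Dnm2, Dnm3 and Speg shown hold 10, 7 and 12, against a median of 6 over all windows. A match is a description of letters and was not tested for binding.

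The WT tissues were compared first, to set the levels that the mutation acts on. Bin1 was high in the skeletal muscles and low in the heart, Speg was high in skeletal and cardiac muscle, Dnm2 had a level that hardly varied, and Dnmbp was highest in the liver. The 15 WT libraries were fitted together, so the 6 tissue pairs share libraries and are not independent. Of the 8 genes, 3 were called between gastrocnemius and diaphragm (background 54.4% of the 17725 genes tested), 5 between gastrocnemius and heart (61.3%), and 4 between diaphragm and heart (51.7%). Against the liver, 7 of 8 were called from the gastrocnemius (79.5%), the diaphragm (76.1%) and the heart (76.4%), each time all but Dnm2. The shares of members called lay near those of all genes.

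**Figure D1:**
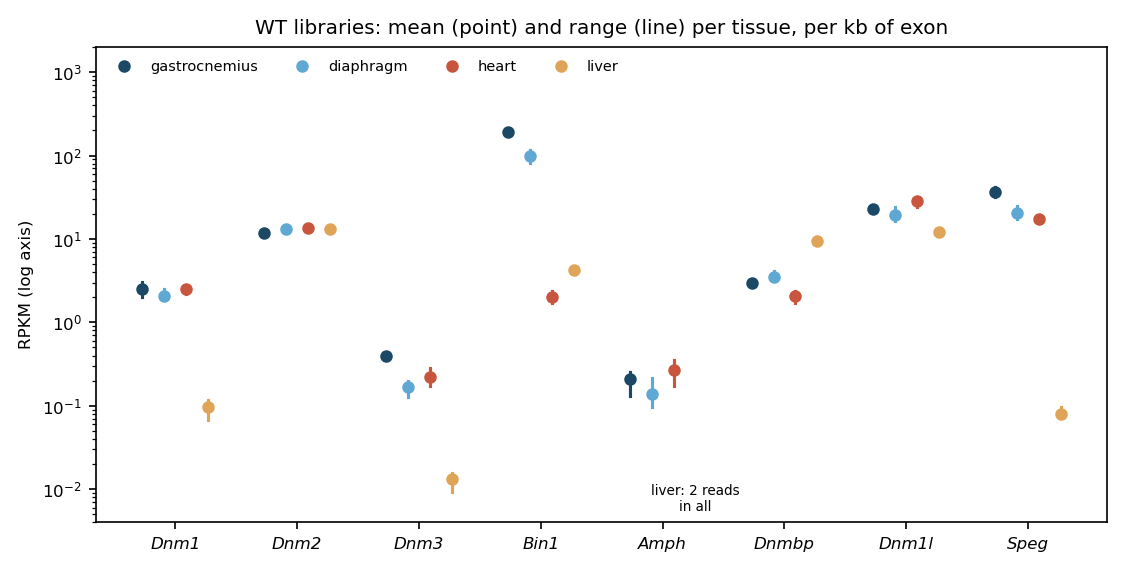
RPKM of the 8 genes in the WT libraries (log axis), 1 colour per tissue; points are means and lines span the lowest to the highest library (n = 4, 4, 4 and 3), with Amph in liver (2 reads in all) given in words. Bin1 spans from 191 RPKM in the gastrocnemius to 2.01 RPKM in the heart, while Dnm2 stays between 11.8 and 13.4 RPKM.

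Dnm2, the dynamin found in nearly all tissues, read 67.7, 58.0, 60.0 and 66.8 CPM in WT gastrocnemius replicates 1 to 4. Diaphragm had 74.6, 66.0, 72.4 and 64.4 CPM, heart 73.0, 76.2, 68.0 and 68.6 CPM, and liver 71.7, 71.4 and 66.4 CPM. The tissues overlapped, except that every heart library lay above every gastrocnemius library by a small margin. No pair of tissues was called, and the widest difference was 0.14 on the log2 scale (SE 0.08, adjusted p = 0.13, edgeR) between heart and gastrocnemius, with a 95% interval of -0.31 to 0.03 for gastrocnemius against heart. This evenness rests on the scaling: with library totals alone, the median of all genes moves by -0.52 between gastrocnemius and diaphragm and by -0.59 between gastrocnemius and heart, and Dnm2 moves with it to -0.62 (adjusted p = 5.1e-05) and -0.74 (adjusted p = 7.5e-06).

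Dnm1, the dynamin of synaptic vesicle recycling in neurons, had a low level in the 3 striated muscles. Its WT means were 13.3 ± 2.35 CPM for gastrocnemius, 10.9 ± 1.68 CPM for diaphragm, 13.2 ± 1.31 CPM for heart and 0.501 ± 0.131 CPM for liver. Gastrocnemius, heart and diaphragm overlapped in Dnm1, with no pair called (though with library totals alone Dnm1 stood at -0.55 for gastrocnemius against heart, adjusted p = 0.0069), and the liver lay 28.2-fold under the gastrocnemius (adjusted p = 1.9e-10). Dnm3, a dynamin known best from brain and testis, was higher in the gastrocnemius (8.61 to 10.4 CPM) than in heart (4.17 to 7.004 CPM) or diaphragm (3.09 to 4.91 CPM). The Dnm3 difference between gastrocnemius and diaphragm was 1.26 on the log2 scale (SE 0.18, adjusted p = 5e-05), and 1.08 without the hepatocyte-rich libraries (adjusted p = 0.014, 1 WT diaphragm library). Diaphragm against heart was -0.39 for Dnm3 (SE 0.17, 95% interval -0.77 to -0.02), with overlapping libraries, and missed the adjusted threshold (unadjusted p = 0.042, adjusted p = 0.075). It was called with the replicate block (adjusted p = 0.033) and in 2 of the 15 fits that left out 1 library, those without diaphragm replicate 2 or heart replicate 4 (adjusted p of 0.049 and 0.044). It was -0.24 without the hepatocyte-rich libraries (adjusted p = 0.57). In the liver Dnm3 read 0.227 to 0.387 CPM.

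Per length, Dnm2 made up most of the classical dynamin RNA everywhere. Its share of the summed RPKM of Dnm1, Dnm2 and Dnm3 was 80.1% ± 3.52 in WT gastrocnemius, 85.3% ± 1.82 in diaphragm, 83.0% ± 1.72 in heart and 99.2% ± 0.222 in liver. Dnm1 gave 13.6% to 17.2% of the sum in the striated muscles and Dnm3 1.11% to 2.66% (group means). The Dnm3 share rests on its 24452 joined exon bases, against 5249 for Dnm1 and 5330 for Dnm2. The transcripts in use were not resolved, and shorter Dnm3 transcripts would give it a larger share. Dnm1l, known mainly for cutting mitochondria and peroxisomes, was highest in the heart at 148 ± 15.6 CPM. The gastrocnemius held 119 ± 4.17 CPM, the diaphragm 102 ± 16.5 CPM and the liver 63.6 ± 4.85 CPM. The Dnm1l step from gastrocnemius to heart was small (-0.28, SE 0.11, adjusted p = 0.040) and lost its call with DESeq2's size factors (adjusted p = 0.057) and without any of the 4 gastrocnemius libraries or heart replicates 1, 2 or 3 (adjusted p from 0.051 to 0.1). Gastrocnemius and diaphragm were not called for Dnm1l (adjusted p = 0.073). The heart exceeded the diaphragm (-0.53 for diaphragm against heart, SE 0.11, adjusted p = 0.0013), a difference of -0.22 (adjusted p = 0.32) without the hepatocyte-rich libraries.

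Bin1 encodes amphiphysin 2, which forms T-tubules in skeletal muscle. It read 752, 792, 727 and 867 CPM in WT gastrocnemius and 335, 436, 486 and 380 CPM in diaphragm. Heart had 8.89, 9.86, 7.02 and 7.41 CPM and liver 16.5, 18.9 and 16.9 CPM of Bin1. The 4 tissues did not overlap. Bin1 was 97.0-fold higher in the gastrocnemius than in the heart (log2 6.60, SE 0.17, adjusted p = 3.4e-12), and the heart, itself a striated muscle with T-tubules, lay below the liver (-1.03, SE 0.14, adjusted p = 1.5e-05). The ratio of Bin1 to Dnm2 per length was 16.1 ± 1.43 in WT gastrocnemius, 7.67 ± 1.32 in diaphragm, 0.1497 ± 0.0156 in heart and 0.323 ± 0.0228 in liver. The gastrocnemius exceeded the diaphragm by 0.97 on the log2 scale for Bin1 (SE 0.13, adjusted p = 4.5e-05), and by 0.68 (adjusted p = 0.021) when the 3 WT diaphragm libraries rich in hepatocyte RNA were left out. That value rests on 1 WT diaphragm library, with the spread taken from the other tissues.

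Amph, the neuronal amphiphysin, was near the limit of detection. WT libraries held 17 to 37 Amph reads for gastrocnemius, 17 to 35 for diaphragm and 29 to 57 for heart. The liver held 0, 2 and 0 reads in WT and 0 in all 4 Mtm1-/y libraries, where 3 reads would have been 0.0729 to 0.111 CPM, a limit that covers counting error only. Reads of Amph per library read were 37.3 times as frequent in WT gastrocnemius as in WT liver, with a 95% exact counting interval of 10.1 to 312. Diaphragm against heart was the only called pair of striated muscles for Amph (-0.96, SE 0.36, adjusted p = 0.041), with overlapping libraries. The Amph call was lost without the hepatocyte-rich libraries (-0.29, adjusted p = 0.76) and without 8 of the 15 libraries taken 1 at a time, namely diaphragm replicates 1, 2 and 4, gastrocnemius replicates 1 and 3, and heart replicates 1, 2 and 3 (adjusted p from 0.051 to 0.13). Bin1 was low in the heart, and Amph made up 11.9% ± 3.66 of the summed amphiphysin RPKM in that tissue, against 0.113% ± 0.0342 in the gastrocnemius and 0.136% ± 0.0329 in the diaphragm.

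Speg, a kinase of the triad and a binding partner of myotubularin, read 434, 497, 405 and 527 CPM in WT gastrocnemius and 221, 293, 319 and 224 CPM in the diaphragm. The heart held 198, 223, 217 and 238 CPM of Speg and the liver 1.23, 0.901 and 0.920 CPM. Skeletal and cardiac muscle therefore carried Speg at levels within 2.18-fold of each other, unlike Bin1. The gastrocnemius exceeded the heart by 1.12 (SE 0.14, adjusted p = 1e-05) and the diaphragm by 0.85 (SE 0.14, adjusted p = 0.00019). Diaphragm and heart overlapped in Speg (adjusted p = 0.12). With the hepatocyte-rich libraries left out, the gastrocnemius exceeded the diaphragm by 0.54 with no call (adjusted p = 0.058), and diaphragm against heart was 0.56 (adjusted p = 0.033). Both values rest on 1 WT diaphragm library, at 319 CPM, with the spread taken from the other tissues.

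Dnmbp, also called Tuba, binds dynamin and activates the small GTPase Cdc42 at cell junctions. It was highest in the liver, with 72.0, 81.4 and 83.0 CPM in WT liver and 28.7, 34.1, 26.1 and 26.9 CPM in diaphragm. Gastrocnemius had 22.2, 26.8, 24.0 and 25.4 CPM of Dnmbp and heart 13.9, 15.6, 18.5 and 19.5 CPM. The liver stood apart from all muscles (gastrocnemius against liver -1.60, SE 0.12, adjusted p = 3.2e-08). The gastrocnemius exceeded the heart by 0.58 (SE 0.12, adjusted p = 0.00064, edgeR) but was not called with library totals alone (-0.02). Gastrocnemius and diaphragm were not called (adjusted p = 0.15, edgeR). The diaphragm exceeded the heart by 0.78 (SE 0.12, adjusted p = 8.2e-05, edgeR), with no overlap. The hepatocyte-rich WT diaphragm replicates 1, 2 and 4 held 28.7, 34.1 and 26.9 CPM of Dnmbp, and replicate 3 held 26.1 CPM.

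The nearest pattern to each gene was sought among 15945 genes, over the 8 group means. It was the smallest root mean square difference of centred log2 CPM, with 0.5 CPM added to each mean before the log. That addition narrows differences between low levels, which bears on Amph in every tissue and on Dnm1, Dnm3 and Speg in the liver. Bin1 had no close neighbour: the nearest, Cdh15, the M-cadherin of skeletal muscle, differed by 0.42 log2 units, followed by 3300002P13Rik at 0.44 and Asb16 at 0.47. Speg lay nearest to Asb10 (0.22), Sgca, the alpha-sarcoglycan of the dystrophin complex (0.24), and Cacna2d1, a subunit of the T-tubule calcium channel (0.26). For Dnm2, which has little tissue pattern, Tomm22, Tomm7 and Irak1 differed by 0.04 each. Dnm1 was nearest to Galnt16 (0.11), Tmod2 (0.15) and Rtl6 (0.16), Dnm3 to Gm35576 (0.11), Olfr78 (0.18) and Fyco1 (0.20), and Dnm1l to Tbc1d22b (0.06), Map3k3 (0.06) and Cngb1 (0.08). Amph was nearest to Tia1, 1110018N20Rik and Gypc (0.10 to 0.11) and Dnmbp to Tmem238, Bet1 and Rai14 (0.12 to 0.13). These distances describe 8 points that share their libraries.

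The effect of the mutation on these genes was asked in each tissue separately. In the gastrocnemius Speg, Dnm3 and Dnmbp fell, while Dnm2 and Bin1, whose human counterparts carry other forms of the myopathy, were not called with TMM scaling. In the diaphragm, heart and liver none of the 8 genes was called. Each of the 3 falls in the gastrocnemius was to between 0.725 and 0.844 of the WT level.

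**Figure D2:**
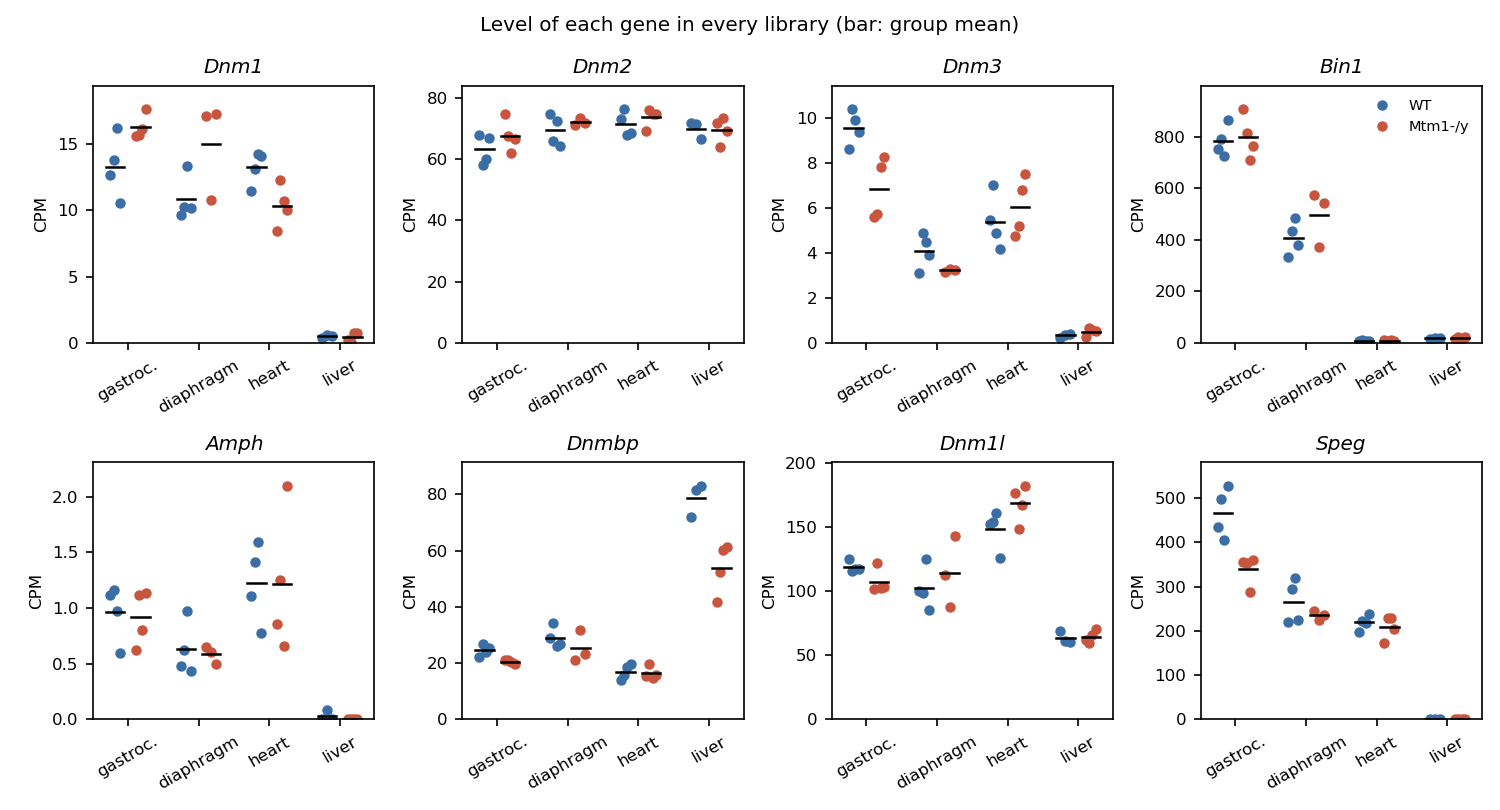
CPM of each gene in every library (linear axes from 0), WT in blue and Mtm1-/y in red, with a bar at the group mean. In the gastrocnemius the 4 Mtm1-/y libraries of Speg (288 to 361 CPM) lie below the 4 WT libraries (405 to 527 CPM), and in Bin1 the genotypes overlap.

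In the gastrocnemius 3 of the 8 genes were called, all lower in Mtm1-/y. Of the 15456 genes tested there 29% were called, 14.1% higher and 14.9% lower. Genotypes did not overlap in CPM for the same 3 members and for 30.5% of all genes. The median log2 fold change was -0.09 over the 8 genes and 0.02 over all genes. DESeq2 called the same 3 genes, with 25.7% of genes called.

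Speg read 356, 354, 288 and 361 CPM in Mtm1-/y gastrocnemius replicates 1 to 4, below each of the 4 WT libraries given above. The groups did not overlap, and the mean fell from 466 ± 56.3 to 340 ± 34.5 CPM. The fold change was -0.44 on the log2 scale (SE 0.10, adjusted p = 0.0097), with a 95% interval of -0.67 to -0.22. Speg was called in each of the 8 fits that left out 1 library, at -0.50 to -0.36.

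Dnm3 read 5.58, 5.74, 7.84 and 8.28 CPM in Mtm1-/y gastrocnemius against 8.61, 10.4, 9.92 and 9.38 CPM in WT. The groups were separated by a narrow gap. Dnm3 fell by 0.46 on the log2 scale (SE 0.15, adjusted p = 0.041). It was called in 3 of the 8 fits that left out 1 library, and lost its call without Mtm1-/y replicate 1 or 2 or without WT replicate 2, 3 or 4 (adjusted p from 0.07 to 0.1).

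Dnmbp read 20.98, 21.003, 20.39 and 19.85 CPM in Mtm1-/y gastrocnemius, just under the lowest WT library at 22.2 CPM. It fell by 0.24 on the log2 scale (SE 0.07, adjusted p = 0.030), and was called in 1 of the 8 fits that left out a library, with adjusted p up to 0.079 in the others. It lost its call without WT replicate 2, 3 or 4 or any of the Mtm1-/y replicates.

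The other 5 genes were not called in the gastrocnemius. Dnm1 read 15.6, 15.7, 16.1 and 17.6 CPM in Mtm1-/y against 12.7, 13.8, 16.2 and 10.5 CPM in WT. Only WT replicate 3 reached the Mtm1-/y range, and the difference was 0.30 (SE 0.12, adjusted p = 0.096), passing without that library (0.41, adjusted p = 0.029). Dnm2 read 74.8, 67.4, 61.9 and 66.5 CPM in Mtm1-/y, overlapping WT, at 0.11 (SE 0.08, adjusted p = 0.29) with a 95% interval of -0.06 to 0.28. Bin1 read 907, 816, 711 and 764 CPM, also overlapping, at 0.04 (SE 0.09, adjusted p = 0.75) with an interval of -0.16 to 0.24. Dnm1l read 101, 122, 102 and 103 CPM, at -0.13 (SE 0.07, adjusted p = 0.20), and Amph held 24 to 39 reads, at -0.06 (SE 0.29, adjusted p = 0.90). The Bin1 to Dnm2 ratio per length was 15.3 ± 0.475 in Mtm1-/y and 16.1 ± 1.43 in WT gastrocnemius.

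The scaling bears on every gastrocnemius value. With library totals alone, an alternative added after seeing the data, the median of all genes stood 0.34 higher than with TMM, and the share of higher genes among all called rose from 48.5% to 92.2%. The fast muscle markers summed to 151745 to 186120 CPM in WT and 91110 to 109154 CPM in Mtm1-/y, with 7 of 8 called lower and 1 higher. The macrophage markers summed to 62.4 to 110 CPM in WT and 183 to 223 CPM in Mtm1-/y, with 9 of 10 called higher. The endothelial markers summed to 514 to 640 CPM in WT and 383 to 482 CPM in Mtm1-/y (3 of 8 lower), and the smooth muscle and pericyte markers to 670 to 824 CPM and 508 to 628 CPM (2 of 7 lower). The satellite cell and myoblast markers summed to 63.2 to 83.4 CPM and 87.0 to 192 CPM (1 of 7 higher and 2 lower). The white adipocyte and fibroblast sums overlapped, with 6 of 10 and 5 of 9 genes called higher. The skeletal muscle markers summed to 101435 to 129398 CPM in WT and 66764.5 to 74585.9 CPM in Mtm1-/y (5 of 6 lower and 1 higher). The cardiomyocyte markers summed to 6818 to 7792 CPM and 654 to 2514 CPM, though 3 of the 5 genes tested were called higher and 1 lower. The part of these marker lists in the members' changes was not tested. On the scale of library totals Speg (-0.10, adjusted p = 0.30) and Dnm3 (-0.13, adjusted p = 0.50) were not called and Dnmbp turned to 0.10 (adjusted p = 0.25). Dnm1 (0.63, adjusted p = 0.0041), Dnm2 (0.45, adjusted p = 0.0020) and Bin1 (0.38, adjusted p = 0.0028) were then called higher, so the 3 falls are falls relative to the other genes of the same libraries.

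**Figure D3:**
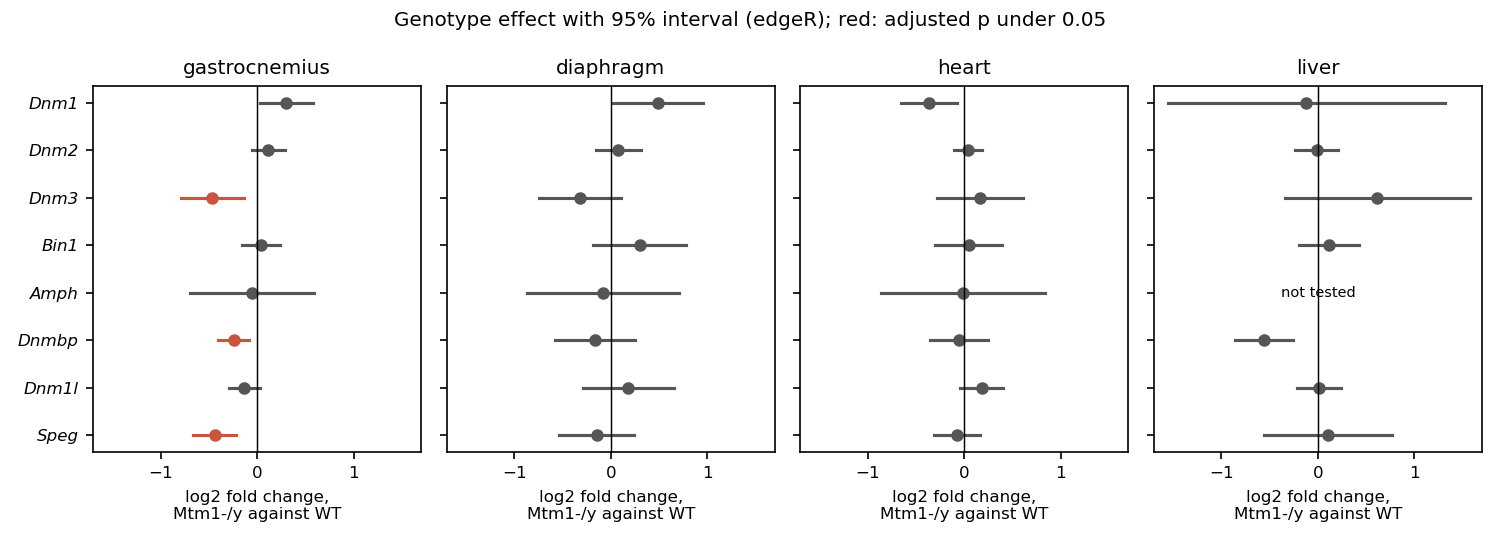
Log2 fold change of Mtm1-/y against WT with its 95% interval for each gene and tissue (edgeR); red marks an adjusted p under 0.05. Speg, Dnm3 and Dnmbp in the gastrocnemius are red, and Amph was not tested in the liver.

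In the diaphragm no member was called by edgeR or DESeq2, and 1 of 8 had an unadjusted p under 0.05, against 1806 of all 16796 genes tested. Few genes were called at all in this tissue (0.0119% by edgeR and 2.37% by DESeq2), and no member was separated by genotype against 9.93% of all genes. Dnm1 read 17.1, 10.8 and 17.2 CPM in Mtm1-/y replicates 1, 2 and 4 and 9.62, 10.3, 13.3 and 10.2 CPM in WT. The Mtm1-/y library that overlapped WT was replicate 2, the one rich in hepatocyte RNA. The Dnm1 difference was 0.49 (SE 0.20, adjusted p = 0.44) and 0.36 (adjusted p = 0.66) without the 4 hepatocyte-rich libraries. Bin1 had 575, 371 and 542 CPM in Mtm1-/y, lowest in the same replicate, and differed by 0.30 (SE 0.20, adjusted p = 0.68), or by 0.20 (adjusted p = 0.81) without the hepatocyte-rich libraries. Speg had 244, 225 and 236 CPM, within the WT range, at -0.15 (SE 0.17, adjusted p = 0.85) and -0.41 (adjusted p = 0.65) without those libraries. Dnm3 had 3.15 to 3.28 CPM, at -0.32 (SE 0.18, adjusted p = 0.61), Dnm2 71.0 to 73.5 CPM, at 0.08 (SE 0.10), and Dnm1l 87.4 to 143 CPM, at 0.18 (SE 0.20). Amph held 17 to 35 reads in Mtm1-/y diaphragm, at -0.08 (SE 0.33). Without the hepatocyte-rich libraries these differences were -0.49 for Dnm3, -0.02 for Dnm2, 0.03 for Dnm1l and -0.77 for Amph, with none called (adjusted p from 0.69 to 0.98).

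**Figure D4:**
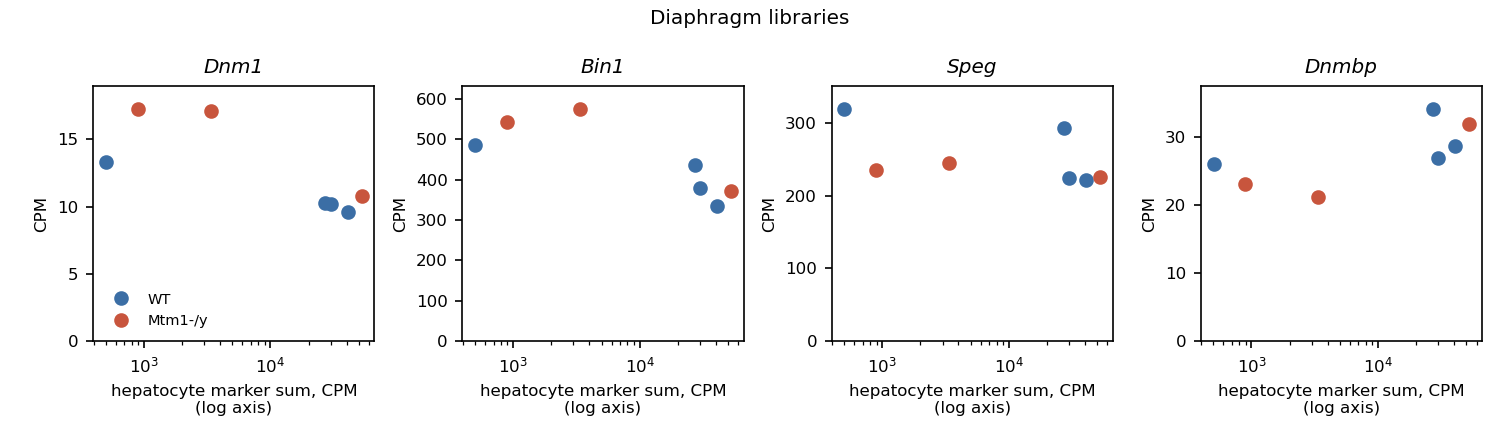
CPM of 4 genes in the 7 diaphragm libraries against the summed CPM of 13 hepatocyte markers (log axis), WT in blue and Mtm1-/y in red. The 4 libraries at 27213 CPM or more hold the lowest Dnm1 (9.62 to 10.8 CPM) and Bin1 (335 to 436 CPM) and the highest Dnmbp (26.9 to 34.1 CPM). Speg overlaps, at 221 to 293 CPM in those 4 libraries and 236 to 319 CPM in the rest.

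Among the diaphragm libraries, the 4 rich in hepatocyte RNA held 9.62 to 10.8 CPM of Dnm1 and 335 to 436 CPM of Bin1, below the other 3 libraries (13.3 to 17.2 and 486 to 575 CPM). They held 26.9 to 34.1 CPM of Dnmbp, above the other 3 (21.2 to 26.1 CPM). Dnm1l read 85.4 to 99.9 CPM in the 4 and 113 to 143 CPM in the other 3. Speg, Dnm3 and Amph overlapped. Speg read 236 to 319 CPM in the other 3 and 221 to 293 CPM in the hepatocyte-rich libraries. In liver itself Dnm1, Bin1, Speg, Dnm3 and Amph were low, Dnm1l was lower than in WT diaphragm, and Dnmbp was high. Dnmbp differed between the diaphragm genotypes by -0.16 (SE 0.17, adjusted p = 0.83) and by -0.24 (adjusted p = 0.73) without those libraries. The summed fibroblast markers also ran with genotype in the diaphragm, from 2055 to 4308 CPM in WT and from 4487 to 9824 CPM in Mtm1-/y. So did the endothelial markers, in the other direction, at 597 to 694 CPM in WT and 508 to 583 CPM in Mtm1-/y. The part of the hepatocyte, fibroblast and endothelial RNA in the members' values was not tested.

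In the heart no member was called by edgeR or DESeq2, with 1 of 8 at an unadjusted p under 0.05 against 1353 of all 15238 genes tested, and the background was again low (0.00656% by edgeR and 0.453% by DESeq2). No member was separated by genotype, against 4.17% of all genes. Dnm1 read 8.41, 12.3, 10.7 and 10.0 CPM in Mtm1-/y heart against 11.4, 13.1, 14.3 and 14.1 CPM in WT. Its groups overlapped at 1 library each, and it differed by -0.37 (SE 0.13, adjusted p = 0.55). Dnm1l read 176, 149, 167 and 182 CPM against 152, 154, 161 and 125 CPM, at 0.18 (SE 0.10, adjusted p = 0.55). Speg read 173, 229, 230 and 204 CPM in Mtm1-/y heart, at -0.08 (SE 0.11, adjusted p = 0.77). Dnm2 differed by 0.03 (SE 0.06), Bin1 by 0.05 (SE 0.15), Dnm3 by 0.16 (SE 0.20), Dnmbp by -0.06 (SE 0.13) and Amph by -0.01 (SE 0.38).

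In the liver 7 of the 8 genes could be tested and none was called by edgeR or DESeq2, with 1 at an unadjusted p under 0.05. No gene of the 14305 tested was called by edgeR (0%), although 606 had an unadjusted p under 0.05, and DESeq2 called 0.163%. Dnmbp, the member most abundant in liver after Dnm2 and Dnm1l per length, read 41.6, 52.5, 60.1 and 61.3 CPM in Mtm1-/y liver against 72.0, 81.4 and 83.0 CPM in WT. The groups did not overlap, as in 5.56% of all genes. The difference of -0.56 (SE 0.13, 95% interval -0.86 to -0.26) did not pass edgeR's adjustment (unadjusted p = 0.0022, adjusted p = 0.97) or that of DESeq2 (adjusted p = 0.12). Dnm2 read 63.8 to 73.3 CPM in Mtm1-/y liver, at -0.01 (SE 0.10, interval -0.23 to 0.21). Dnm1l differed by 0.01 (SE 0.10) and Bin1 by 0.11 (SE 0.14). Dnm1, Dnm3 and Speg stayed at or below 1.28 CPM in every liver library.

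Whether the genotype effect differed between tissues was tested as a contrast in fits of both tissues, which share libraries with the fits above. Between heart and gastrocnemius 1 member was called (background 19.8%). This was Dnm1, whose effect was 0.65 lower on the log2 scale in the heart (-0.65, SE 0.18, adjusted p = 0.022, edgeR). Within each tissue the Dnm1 genotypes overlapped and were not called. Their differences were 0.30 in the gastrocnemius (adjusted p = 0.096, edgeR) and -0.37 in the heart (adjusted p = 0.55, edgeR). The contrast was -1.06 with library totals alone, on a scale where the median of all genes moved by -0.41 in the same direction. The effects of Dnm3 (0.64, SE 0.26, adjusted p = 0.092), Speg (0.38, SE 0.16, adjusted p = 0.093) and Dnm1l (0.33, SE 0.12, adjusted p = 0.076) were not shown to differ by edgeR. DESeq2 called these 3 besides Dnm1 (adjusted p of 0.045, 0.037 and 0.021). Between heart and diaphragm no member was called (background 0.00573%), with Dnm1 at -0.84 (SE 0.24, adjusted p = 0.23), and between gastrocnemius and diaphragm none (background 0.28%). For Speg the last contrast was -0.28 (SE 0.19, adjusted p = 0.57), with an interval of -0.70 to 0.13. That contrast includes the hepatocyte-rich diaphragm libraries. Without them the diaphragm effect of Speg, given above, lay closer to its gastrocnemius effect, on a lone WT diaphragm library.

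The genes that act beside these 8 were read from 5 lists, described by counts and medians beside the median of 0.02 over all genes. In the gastrocnemius most genes of the mitochondrial fission and fusion, triad and Speg lists fell. The endocytosis and BAR lists held 9 calls in all, 8 of them higher. The backgrounds for these counts are the 14.1% higher and 14.9% lower given above.

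The 12 genes of this list act in mitochondrial and peroxisomal fission, as Dnm1l does, or in fusion. Of these 12 genes, 8 fell in the gastrocnemius and none rose (median -0.33). Gdap1, a mitochondrial fission factor known from inherited neuropathy, fell from 42.5 ± 5.26 to 15.1 ± 0.936 CPM (-1.48, SE 0.10, adjusted p = 3.3e-05). The fusion genes Mfn2, from 771 ± 30.8 to 541 ± 30.6 CPM (-0.50, SE 0.07, adjusted p = 0.00072), and Opa1, from 159 ± 8.06 to 117 ± 11.1 CPM (-0.42, SE 0.08, adjusted p = 0.0033), also fell. Mff, the outer membrane receptor of Dnm1l, fell by 0.23 on the log2 scale (adjusted p = 0.020). With library totals alone 2 of the 12 were lower and 3 higher.

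Of 15 tested genes of the triad and of other centronuclear myopathies, 9 fell and none rose (median -0.42). Besides Mtm1 these included the junctophilins Jph2 (-0.79, SE 0.08, adjusted p = 0.00023) and Jph1 (-0.69, SE 0.09, adjusted p = 0.00063), which hold the T-tubule to the calcium store. Of 11 tested relatives and partners of Speg, 7 fell and 2 rose (median -0.55), with Jph2 on both lists. Fsd2 fell from 552 ± 14.4 to 330 ± 36.7 CPM (-0.73, SE 0.08, adjusted p = 0.00036) and Cmya5 by 0.69 on the log2 scale (SE 0.09, adjusted p = 0.00055). Desmin (Des) at 0.49 and Esd at 0.92 were the 2 that rose. With library totals alone the triad list had 5 lower and 5 higher, and the Speg list 5 lower and 3 higher. With all 30 libraries in a single fit 1 gene of each list was lower, and 7 of the 12 fission and fusion genes.

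Of 23 tested endocytosis genes, 4 rose and 1 fell (median 0.04). Cttn, which links actin to dynamin, rose from 36.7 ± 2.19 to 49.8 ± 2.74 CPM (0.46, SE 0.07, adjusted p = 0.0017). Clta, the clathrin light chain A (0.37, SE 0.08, adjusted p = 0.0078), and Was, an actin regulator of blood cells (0.89, SE 0.19, adjusted p = 0.0072), also rose, and the scaffold Itsn1 fell (-0.23, adjusted p = 0.043). No endocytosis gene was called lower with all 30 libraries in a single fit, with library totals alone, without the filter, with the replicate block, or without any of Mtm1-/y replicates 1, 3 and 4 or WT replicates 2, 3 and 4. The call of Was was lost with all 30 libraries (adjusted p = 0.074). Of 18 tested other BAR genes, 4 rose and none fell (median 0.08), among them Bin3 (0.61, SE 0.10, adjusted p = 0.0024), Fnbp1 (0.41, SE 0.09, adjusted p = 0.0062) and Sh3gl1 (0.32, SE 0.09, adjusted p = 0.024). The Sh3gl1 call was lost with all 30 libraries (adjusted p = 0.076) and without Mtm1-/y replicate 3, WT replicate 2 or WT replicate 3 (adjusted p from 0.051 to 0.072). Was and the fourth BAR gene, Bin2 (1.54, SE 0.43, adjusted p = 0.024), are genes of blood cells. The macrophage markers rose in the same libraries, and their part in the rises of Was and Bin2 was not tested. With library totals alone 15 of the 23 endocytosis genes and 12 of the 18 BAR genes were higher. In the diaphragm and the heart Mtm1 was the only list gene called, and in the liver no list gene was called. The diaphragm call of Mtm1 (adjusted p = 0.027) was lost without Mtm1-/y replicate 1 or 4, without WT replicate 1 or 2 (adjusted p from 0.16 to 0.26), with the replicate block (-2.12, adjusted p = 0.57) and without the hepatocyte-rich libraries (-2.56, adjusted p = 0.56), while its log2 fold change stayed between -2.56 and -2.10 in these and the other fits that left out 1 library.

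**Figure D5:**
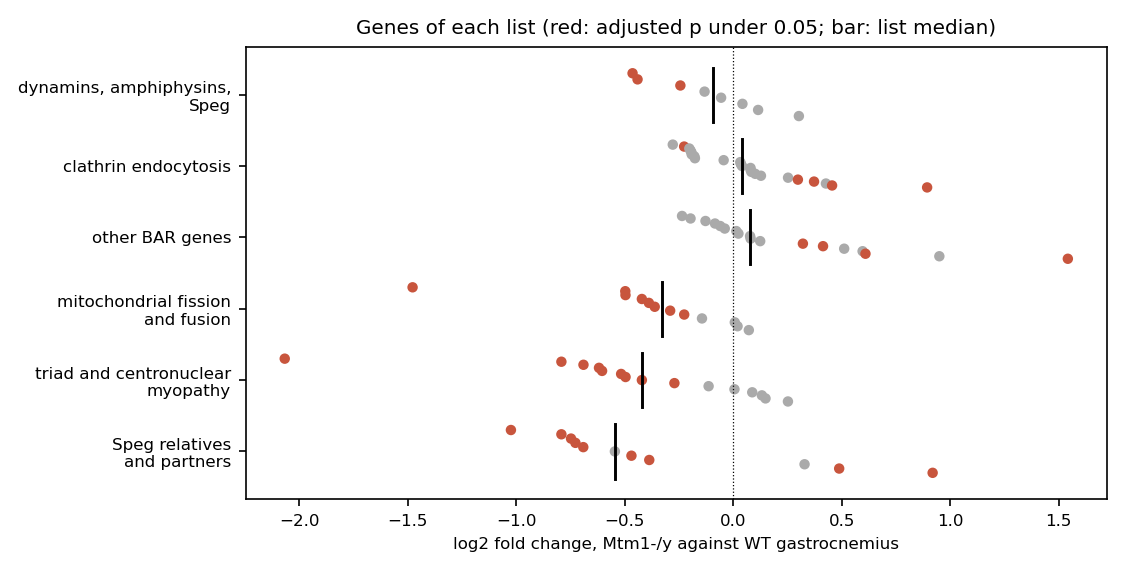
Log2 fold change of Mtm1-/y against WT gastrocnemius for the genes of each list, red at an adjusted p under 0.05, with a bar at each list's median. The medians run from -0.55 (Speg relatives and partners) to 0.08 (other BAR genes), and the 8 genes described here have a median of -0.09.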

How the data were processed

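The authors deposited raw read counts per Ensembl gene, 1 column for each of the 30 libraries. According to the submitters' processing notes and the study's methods, single-end reads of a polyA stranded library were demultiplexed with bcl2fastq 2.17.1.14, trimmed with cutadapt 1.10, aligned to mm10 with STAR 2.5.3a and counted with HTSeq 0.6.1p1 in union mode on unambiguous reads. Reads that fit several genes were therefore not counted.

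From the deposited counts, genes passing edgeR's filterByExpr (minimum count 10) were tested in R 4.3.3 with edgeR 4.0.16 quasi-likelihood fits and TMM factors. Genotypes were fitted within each tissue, WT tissues together, and genotype by tissue contrasts in pairs of tissues. P-values were Benjamini-Hochberg adjusted over all genes tested. The edgeR fits of 4 of the 13 comparisons were tested on simulated counts. Alternatives were DESeq2 1.42.0, its size factors, library totals alone, no filter, a log2 fold change over 1 (the study's threshold), all 30 libraries in a single fit, a replicate block, no liver-enriched genes, and leaving out libraries. Named list genes were the 3 of lowest adjusted p in the gastrocnemius in each list, and the other list genes were named after their values were seen. Neighbours were the 3 genes of smallest distance. The members and lists were chosen with earlier results of these data known. Precision follows from depth: intervals for reads of Amph cover counting error only.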

Additional observations from a re-analysis of the deposited data

Results flagged for a closer look

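In the gastrocnemius of Mtm1-/y mice, the Dnm1l level of replicate 2 was 121.917 CPM, far from the other 3 libraries at 101 to 103 CPM. Without this library the genotype difference of Dnm1l was -0.19 (adjusted p = 0.049, edgeR). The Speg level of Mtm1-/y gastrocnemius replicate 3 was 287.978 CPM, below the other 3 libraries at 354 to 361 CPM, and Speg remained called without it. Both were found by the gap to the nearest library relative to the whole range (Dixon's criterion). Of 47 groups of members' values tested, about 1 in 20 would be found by chance.

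The genotype effect on Dnm1 differed between heart and gastrocnemius by -0.652437 on the log2 scale (adjusted p = 0.022, edgeR). It was called in all 16 fits that left out 1 library.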

How the results depend on the processing

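Of the members and named list genes, 780 values under alternatives other than leaving out a library kept direction and side of the threshold, 39 reversed, 48 lost a call and 23 gained one. The cause of these moves was not tested. Most of the reversals arose with library totals alone or with the 4 hepatocyte-rich diaphragm libraries left out. Library totals alone were planned for the WT tissue pairs, and were added after seeing the data for the genotype effects and their contrasts. Leaving out the 4 libraries was chosen after seeing the data.

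In the gastrocnemius the 3 members called became 0 with a log2 fold change over 1, 1 with all 30 libraries, 1 without the filter, and 1 to 3 when a library was left out (1 without Mtm1-/y replicate 1, WT replicate 2 or WT replicate 4). Between WT gastrocnemius and diaphragm 3 became 1 with the fold threshold, 6 with library totals alone, 5 with the replicate block and 3 to 5 when a library was left out (5 without WT diaphragm replicate 3). With the fold threshold 5 became 2 between WT gastrocnemius and heart, 4 became 1 between WT diaphragm and heart, and 1 became 0 for heart minus gastrocnemius. The latter was 4 with DESeq2, 2 with its size factors, 2 with library totals alone and 1 to 2 when a library was left out (2 without replicate 2 of Mtm1-/y gastrocnemius, Mtm1-/y heart or WT heart). Heart minus diaphragm was 0 to 1 when a library was left out (1 without Mtm1-/y diaphragm replicate 2).

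With library totals alone, the log2 differences that reversed were in the gastrocnemius Dnm1l 0.202, Amph 0.272 and Dnmbp 0.0954, in the heart Dnm2 -0.0212 and Bin1 -0.00907, and in the liver Dnm1l -0.0317. Between WT gastrocnemius and diaphragm they were Dnm1 -0.189 and Dnm1l -0.269, and between WT gastrocnemius and heart Dnm1 -0.547 and Dnmbp -0.0238. For heart minus gastrocnemius they were Dnm1l -0.0757, Bin1 -0.388, Amph -0.333, Speg -0.0305 and Dnmbp -0.209. For heart minus diaphragm they were Dnm1l -0.111, Amph -0.0330 and Speg -0.0364, and for gastrocnemius minus diaphragm Dnm1 0.0849, Dnm3 0.145, Bin1 0.0215 and Dnmbp 0.229. Without the hepatocyte-rich libraries, Dnm2 in the diaphragm was -0.0208, WT gastrocnemius against diaphragm gave Dnm1 -0.0129, Dnm1l -0.0851 and Amph -0.0317, WT diaphragm against heart Dnm1 0.0327 and Dnm2 0.0429, heart minus diaphragm Dnm2 0.0445, and gastrocnemius minus diaphragm Dnm3 0.0150. Dnm2 in WT diaphragm against liver was -0.0271 with DESeq2, -0.0322 with its size factors and -0.0456 without liver-enriched genes. DESeq2 gave Amph -0.000418 for gastrocnemius minus diaphragm, and no filter gave Dnm1l -0.0101 for heart minus diaphragm.

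In no comparison did every pair of same-numbered libraries deviate together with a correlation over 0.1, so the numbers were not taken as pairs. That rule cannot exclude mice shared between tissues, and the main fits treated all libraries as independent. The correlations were -0.0186 to 0.117 between gastrocnemius genotypes, and all positive for WT gastrocnemius with heart (0.0334 to 0.209, other pairs -0.143 to 0.0358) and WT diaphragm with heart (0.0483 to 0.226, other pairs -0.244 to 0.169). Between WT gastrocnemius and diaphragm the replicate block added Dnm1 and Dnm1l to the calls (adjusted p of 0.036 and 0.042), and between WT diaphragm and heart Dnm3 (adjusted p = 0.033). With the replicate block the gastrocnemius had 2 members called, Dnmbp being lost (adjusted p = 0.060), and the reversed differences were Amph 0.223 in the diaphragm, Dnm1l -0.0271 in the liver, Dnm1l -0.0353 for heart minus diaphragm and Amph -0.0461 for gastrocnemius minus diaphragm.

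When a library was left out, 68 values reversed, none of them called. The ranges were for Amph -0.221 to 0.227 in the diaphragm, -0.234 to 0.0998 in the gastrocnemius, -0.409 to 0.191 in the heart, -0.244 to 0.189 for gastrocnemius minus diaphragm, -0.310 to 0.288 for heart minus diaphragm and -0.340 to 0.251 for heart minus gastrocnemius. For Bin1 they were -0.0181 to 0.102 in the gastrocnemius, -0.0269 to 0.135 in the heart and -0.0609 to 0.117 for heart minus gastrocnemius. Dnm1 had -0.0642 to 0.144 for WT gastrocnemius against heart and -0.445 to 0.202 in the liver, and Dnm1l -0.0351 to 0.0793 in the liver and -0.139 to 0.208 for heart minus diaphragm. Dnm2 had -0.0623 to 0.0558 for WT diaphragm against heart, -0.00838 to 0.112 for WT diaphragm against liver, -0.0567 to 0.0252 in the liver, -0.00387 to 0.0955 for gastrocnemius minus diaphragm and -0.0686 to 0.00383 for heart minus diaphragm. Dnmbp had -0.148 to 0.0245 in the heart, -0.182 to 0.133 for gastrocnemius minus diaphragm and -0.000543 to 0.334 for heart minus diaphragm, and Speg -0.120 to 0.00174 in the heart and -0.0223 to 0.164 for heart minus diaphragm. Low counts limit Amph in all tissues and Dnm1, Dnm3 and Speg in the liver.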
